A study of Mus musculus with 16 samples.

Results

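Cells sorted from mouse liver with the lectin DBA (dolichos biflorus agglutinin), which is used to collect bile duct cholangiocytes, were compared between Ift88Orpk and wild type mice. The comparison rests on 4 of the 16 libraries of a series of sorted liver cells, chosen by their labels: C57BL/6 wild type, C57BL/6 Ift88Orpk, BALB/c wild type and BALB/c Ift88Orpk, with 1 library each. The other 12 libraries held Ly6Chi macrophages, Ly6Clo macrophages and neutrophils of the same strains and genotypes. All mice were 4 weeks old, no other allele or agent is named, and wild type mice carried no Ift88Orpk allele according to the labels. Each library was a pool of equal amounts of RNA from 6 to 8 mice with equal numbers of each sex, so a library is 1 measurement and the mice within it cannot be told apart. The strains served as the replicates of genotype, and a constant difference between strains was fitted in each population. A p-value therefore rests on how far the genotype difference varied between the strains, taken over all 4 sorted populations. The labels do not exclude that libraries of the same strain and genotype share mice. The question set by the design is which genes moved the same way with genotype in both strains and which moved in 1 strain only.

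Ift88 encodes a subunit of the intraflagellar transport machinery, which carries cargo along the primary cilium. The cilium is a sensory organelle that stands on the bile duct epithelium and through which vertebrate hedgehog signals are relayed. The Orpk (Oak Ridge polycystic kidney) allele is an insertion that lowers rather than removes Ift88 function. It is carried in every cell rather than deleted in one cell type, and mice that carry it develop cystic kidneys, bile duct hyperplasia and fibrosis around the ducts.

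Ift88 was lower in the Ift88Orpk library of both strains, by little in C57BL/6 and by more in BALB/c. The level was 8.78 CPM (counts scaled to a common library size with TMM factors) in C57BL/6 wild type and 7.63 CPM in C57BL/6 Ift88Orpk. It was 8.59 CPM in BALB/c wild type and 4.62 CPM in BALB/c Ift88Orpk. Both wild type libraries thus lay above both Ift88Orpk libraries. Of 12575 genes that reached 5 CPM in any DBA-sorted library, 11.8% showed this order and 15.8% the reverse. The ratio of Ift88Orpk to wild type was 0.87 in C57BL/6 (95% counting interval 0.694 to 1.09) and 0.538 in BALB/c (0.415 to 0.693), and these intervals cover counting error only. The fitted log2 fold change over the strains was -0.55 ± 0.50 (SE, adjusted p = 1.0, edgeR quasi-likelihood test). In the 12 leukocyte libraries Ift88 ran the other way, at 1.44 to 4.31 CPM in the 6 wild type and 3.85 to 8.72 CPM in the 6 Ift88Orpk libraries. Counts per gene do not show whether the transcripts of the Ift88Orpk allele are complete, so the level of this gene is a weak check of the labels.

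The gene next to Ift88 separated the genotypes more clearly than Ift88 itself. Il17d, which encodes a secreted member of the interleukin 17 family, lies at chr14:57524777-57543166 (GRCm38), 6840 bases past the end of Ift88 at chr14:57424062-57517936. It was picked out after its values were seen. The promoters of both genes are shown because the data bear on this stretch of chromosome 14. They are RefSeq sequences of build GRCm38.p6, + strand, from 250 bases before to 50 bases after the annotated start, with CG dinucleotides in capitals.
Ift88, chr14:57423821-57424120: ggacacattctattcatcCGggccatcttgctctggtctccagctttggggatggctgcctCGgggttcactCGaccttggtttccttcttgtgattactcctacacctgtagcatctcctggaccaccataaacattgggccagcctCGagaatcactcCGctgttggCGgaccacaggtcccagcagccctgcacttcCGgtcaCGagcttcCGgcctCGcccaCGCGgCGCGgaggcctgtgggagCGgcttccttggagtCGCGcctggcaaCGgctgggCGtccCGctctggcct
Il17d, chr14:57524579-57524878: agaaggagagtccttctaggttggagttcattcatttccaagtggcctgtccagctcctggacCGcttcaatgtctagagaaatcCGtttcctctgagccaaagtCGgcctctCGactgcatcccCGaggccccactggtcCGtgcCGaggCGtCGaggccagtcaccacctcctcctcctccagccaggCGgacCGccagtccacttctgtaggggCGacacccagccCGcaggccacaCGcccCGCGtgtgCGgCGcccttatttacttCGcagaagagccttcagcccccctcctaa
The Ift88 window held 20 CG dinucleotides at 62.3% G+C and the Il17d window 19 at 61.7%. The median over 32851 promoter windows was 7, and 26.5% held at least 20 and 28.1% at least 19. On both strands, neither window held the letters GGGCGG, found in 35.7% of all windows, or TATAAA, found in 13.6%.

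Il17d had 3 counts (0.185 CPM) in C57BL/6 wild type and 209 counts (9.01 CPM) in C57BL/6 Ift88Orpk DBA-sorted cells. In BALB/c it had 6 counts (0.301 CPM) in wild type and 75 counts (3.53 CPM) in Ift88Orpk. Both Ift88Orpk libraries were high and both wild type libraries were at or near the level of 3 counts. The ratio was 48.6 (95% counting interval 16.4 to 238) in C57BL/6 and 11.7 (5.14 to 33.0) in BALB/c. The fitted log2 fold change was 4.49 ± 1.17 (SE, adjusted p = 0.79, edgeR quasi-likelihood test), which did not pass the threshold of 0.05. In the leukocytes all 6 wild type libraries had 0 counts and the 6 Ift88Orpk libraries 10 to 184 counts. With the wild type libraries set to 3 counts each, the ratio was lowest in BALB/c neutrophils (5.7) and highest in C57BL/6 Ly6Clo macrophages (34.6). These ratios are not lower bounds. From the counts themselves, the lower 95% counting limits were 3.84 in BALB/c neutrophils and 27.9 in C57BL/6 Ly6Clo macrophages. Over the 16 libraries the gene was higher in Ift88Orpk in 8 of 8 pairs, with 9 counts in all wild type libraries together and 709 in all Ift88Orpk libraries.

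**Figure D1:**
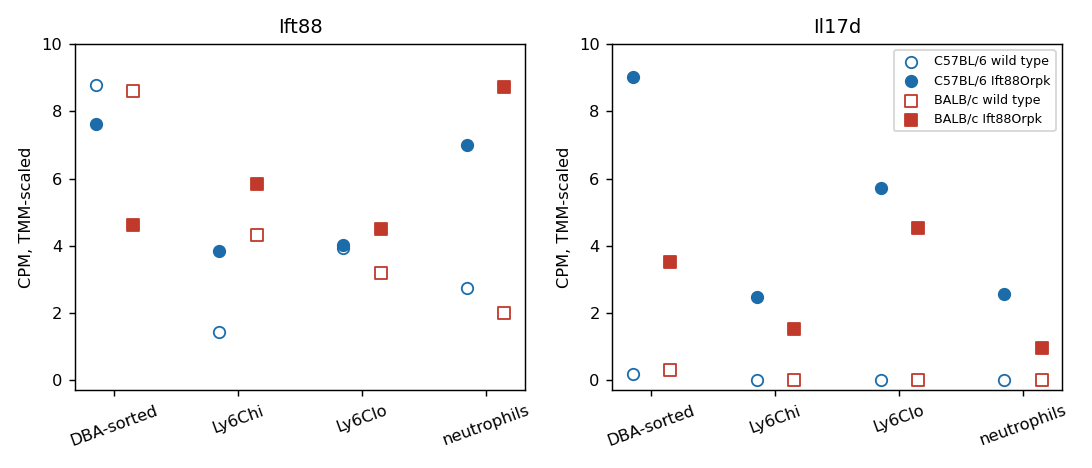
Level of Ift88 (left) and of its neighbour Il17d (right) in CPM in each of the 16 libraries, by sorted population. Open symbols are wild type, filled symbols Ift88Orpk, circles C57BL/6 and squares BALB/c. Il17d stands at 0 to 0.301 CPM in wild type and 0.948 to 9.01 CPM in Ift88Orpk, whereas Ift88 is lower in Ift88Orpk only in the DBA-sorted cells.

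Other genes around Ift88 did not share this pattern in the DBA-sorted cells. Of 159 genes within 10 Mb of Ift88 that reached 5 CPM in any DBA-sorted library, 1 (0.629%), Il17d, differed at least 2-fold the same way in both strains. The share was 1.24% among all such genes of the genome. The 12 other genes within 500 kb that had at least 20 counts had log2 ratios of -0.74 to 0.51 in C57BL/6 and -1.60 to 2.36 in BALB/c.

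The sorted cells held far more marker RNA of sinusoidal endothelium than of bile duct. The summed level of 16 cholangiocyte markers, among them Krt19, Krt7, Epcam and Sox9, was 1810 CPM in C57BL/6 wild type, 977 CPM in C57BL/6 Ift88Orpk, 933 CPM in BALB/c wild type and 1375 CPM in BALB/c Ift88Orpk. All of these markers were detected in all 4 libraries. The summed level of 15 markers of liver sinusoidal endothelium, among them Stab2, Stab1 and Kdr, was 24029, 26032, 30484 and 18311 CPM in the same order. Sums are not scaled for transcript length, but the endothelial sum was the larger in each library by more than 10-fold. Marker sums do not give the share of the RNA that each cell type supplied. The label is therefore taken to name the sort, and the cells are called DBA-sorted below. In bulk libraries, fewer cells of a type and less RNA per cell cannot be told apart.

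**Figure D2:**
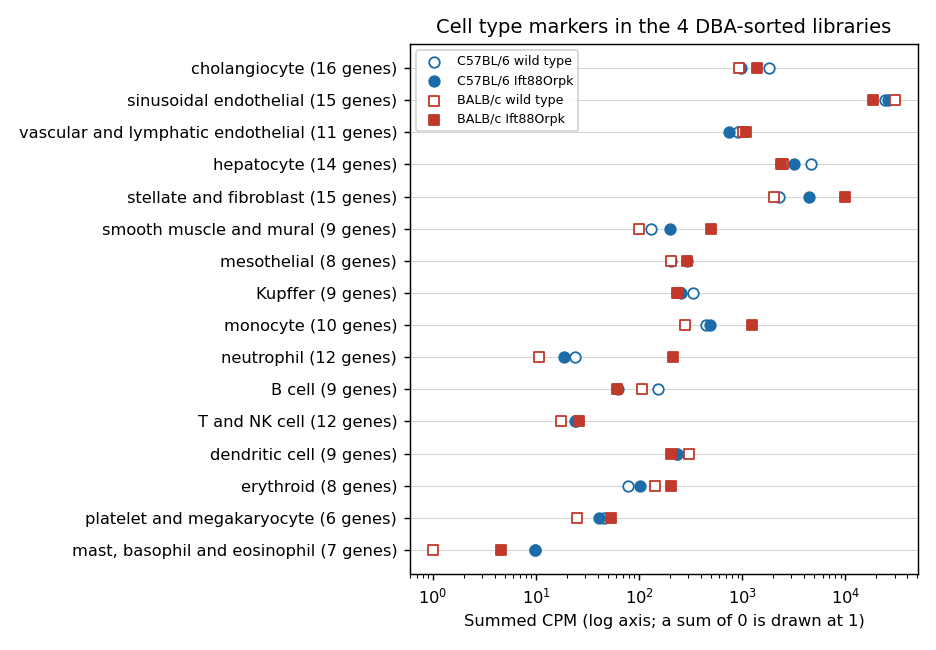
Summed CPM of 16 cell type marker lists in the 4 DBA-sorted libraries (log axis, a sum of 0 drawn at 1, 1 point per library). Sinusoidal endothelial markers have the highest sum in each library, and the stellate and fibroblast, mural, monocyte and neutrophil sums are highest in BALB/c Ift88Orpk.

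Markers of other cells shifted along with genotype, and not alike in the strains. Stellate and fibroblast markers summed to 2295 CPM in C57BL/6 wild type, 4447 CPM in C57BL/6 Ift88Orpk, 2008 CPM in BALB/c wild type and 9964 CPM in BALB/c Ift88Orpk. Smooth muscle and mural markers summed to 130, 197, 98.6 and 492 CPM in that order. Both Ift88Orpk libraries lay above both wild type libraries for these sums, and BALB/c Ift88Orpk was the highest. In C57BL/6, however, 6 of 15 stellate and fibroblast markers were higher, with a median log2 ratio of -0.04, and most of the larger sum there came from Col1a1, Col1a2 and Col3a1. Neutrophil markers summed to 24, 18.8, 10.6 and 211 CPM and monocyte markers to 449, 485, 278 and 1232 CPM, so that BALB/c Ift88Orpk alone stood apart for neutrophils. B cell markers summed to 154 and 62.1 CPM in C57BL/6 and 106 and 60.9 CPM in BALB/c, lower in Ift88Orpk in both. The part of these shifts in the results below was not tested.

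The libraries also differed in other ways, and the part of genotype in these was not tested. They held 13796476 to 19856815 gene counts, and mitochondrial genes took 14.75% and 8.26% of them in C57BL/6 wild type and Ift88Orpk, and 5.39% and 12.4% in BALB/c, so this share moved in opposite directions. The labels state equal sexes in each pool. Xist, the RNA of the inactive X chromosome, was 842 and 240 CPM in C57BL/6 wild type and Ift88Orpk and 173 and 655 CPM in BALB/c. The Y-linked genes Ddx3y (22.5 and 62.9 CPM), Uty (10.6 and 52.8 CPM), Kdm5d (13.7 and 28.4 CPM) and Eif2s3y (5.38 and 21 CPM) were higher in Ift88Orpk in C57BL/6. In BALB/c they were closer, at 35.6 and 31.3, 25.1 and 19.4, 31.4 and 24.2, and 13.2 and 13.4 CPM. Xist and the Y-linked genes thus moved against each other in C57BL/6, and in BALB/c Xist alone moved by a large amount. Some pancreatic enzyme transcripts were high in BALB/c wild type: Pnlip, a pancreatic lipase, was 28.2 CPM there and 0 to 0.247 CPM in the other 3 libraries. Ctrb1, a chymotrypsinogen, was instead present in 3 libraries, at 21 and 13 CPM in C57BL/6 wild type and Ift88Orpk and 39.5 CPM in BALB/c wild type, against 0.895 CPM in BALB/c Ift88Orpk.

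No gene passed the test of genotype in the DBA-sorted cells. Of 21534 genes tested, 0 (0%) reached an adjusted p under 0.05 by edgeR's quasi-likelihood test. At an unadjusted p under 0.05 there were 1140 (5.29%), 801 of them higher and 339 lower in Ift88Orpk. DESeq2 called 83 genes (0.385%), 69 higher and 14 lower, and 44 of these had less than 5 CPM in all 4 libraries. Its calls held 21 of the genes described below as higher in both strains, among them Ednrb, Csf2rb2 and Il1r2, and 6 of those lower in both, among them Lars2. When the C57BL/6 wild type library was left out, edgeR called 48 genes (0.206%), and without the C57BL/6 Ift88Orpk library 47, all of them among the 48. With either C57BL/6 library gone, the other adds nothing to the genotype estimate, so these calls compare the BALB/c pair alone. A fit of the 4 libraries by themselves with strain as a block left 1 residual degree of freedom and called 1 gene, CT010467.1. What follows is therefore a description of ratios within each strain, with the fitted estimate beside it.

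Ratios in the C57BL/6 pair and the BALB/c pair were nearly unrelated across genes. Among 12575 genes that reached 5 CPM in any of the 4 libraries, 49.6% had the same sign in both strains. Pearson's r of the log2 ratios across genes was 0.042 and Spearman's rho 0.00068, and genes are not independent replicates. Ratios were taken on the log2(CPM + 1) scale, which understates the change of low genes. The SD of the ratios was 0.52 in C57BL/6 and 0.76 in BALB/c. At least 2-fold higher in Ift88Orpk were 332 genes (2.64%) in C57BL/6 and 1310 (10.4%) in BALB/c, and at least 2-fold lower were 446 (3.55%) and 395 (3.14%).

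Genes were then put in classes by the pair of ratios. At least 2-fold in the same direction in both strains were 117 genes that were higher (0.93%) and 39 that were lower (0.31%) in Ift88Orpk. A gene was assigned to 1 strain when it moved at least 2-fold there and by a log2 ratio under 0.5 in the other. Higher in C57BL/6 only were 115 genes (0.915%) and lower in C57BL/6 only 201 (1.6%). Higher in BALB/c only were 681 (5.42%), the most populous class past the threshold apart from 704 intermediate genes (5.6%), and lower in BALB/c only were 252 (2%). The ratios had opposite directions, at least 2-fold in each strain, for 109 genes (0.867%). The remaining 10357 (82.4%) stayed under the threshold in both strains. Genes with opposite ratios were thus nearly as many as genes higher in both strains. At the threshold, Ndufa13, a subunit of respiratory complex I, was just inside the class higher in both, with log2 ratios of 1.01 in C57BL/6 and 2.25 in BALB/c. Svep1, a matrix protein, was just outside with 1.0 and 3.06, where the first value fell short of 1 before rounding.

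**Figure D3:**
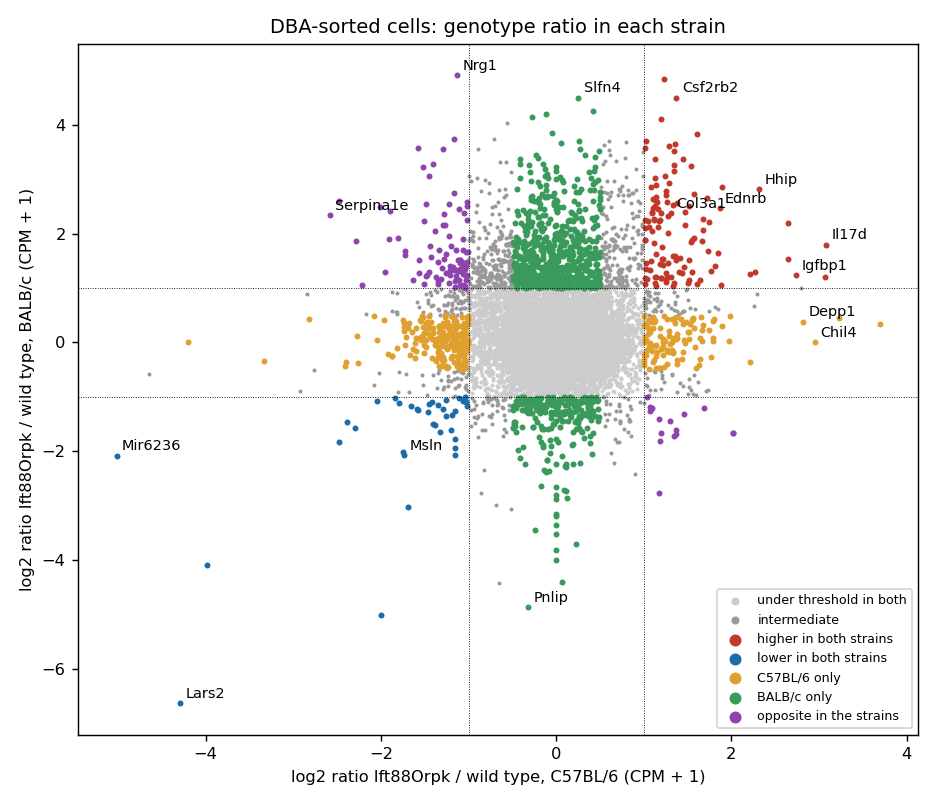
Log2 ratio of Ift88Orpk to wild type (CPM + 1) in the C57BL/6 pair (horizontal) and the BALB/c pair (vertical) for 12575 genes, 1 point per gene, with dotted lines at a 2-fold difference. Colours give the classes; 117 genes lie in the upper right and 39 in the lower left corner, and the wider vertical spread is that of BALB/c.

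Of the 117 genes higher in both strains, 104 were protein coding, 87 had the larger ratio in BALB/c and 66 had an unadjusted p under 0.05. Their levels were low, below 20 CPM in all 4 libraries for 73. Fibrillar collagens and their processing enzymes gave 6 of them, the hedgehog list 1, which was Hhip, and the Notch list 1, which was Notch3. Of the 117, 10 were themselves in a cell type marker list.

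The gene of this class with the largest ratio in its weaker strain, among those with at least 10 CPM in both pairs, was Hhip, which encodes a membrane protein that binds and sequesters hedgehog ligands and is itself a target of the pathway. Hhip was 3.77 CPM in C57BL/6 wild type, 22.8 CPM in C57BL/6 Ift88Orpk, 4.02 CPM in BALB/c wild type and 34.3 CPM in BALB/c Ift88Orpk. The wild type libraries were alike and both Ift88Orpk libraries were several-fold higher. Its ratio was 6.05 (95% counting interval 4.64 to 8.02) in C57BL/6 and 8.54 (6.77 to 10.9) in BALB/c, and the fitted log2 fold change was 2.84 ± 0.67 (SE, adjusted p = 0.64, edgeR). The 12 leukocyte libraries held 0 to 19 counts of Hhip each, at most 1.5 CPM, so genotype effects on it cannot be compared between these cells and the DBA-sorted cells.

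Hedgehog genes as a list did not move together. Ptch1, the receptor and a further target, was 87.6 and 104 CPM in C57BL/6 wild type and Ift88Orpk and 66 and 187 CPM in BALB/c, higher in Ift88Orpk in both strains but by little in C57BL/6. Gli1, a transcription factor whose own transcript reports the pathway, was 2.22 and 0.733 CPM in C57BL/6 and 0 and 10.7 CPM in BALB/c. Gli1 thus ran in opposite directions. Of 15 hedgehog genes tested, 4 were higher in both strains (26.7%), 3 were lower in both (20%) and 0 passed the test. Over all genes tested, 25.3% were higher and 18.3% lower in both strains, so these shares are near the background. Their median log2 ratio was -0.20 in C57BL/6 and 0.55 in BALB/c, against 0.00 and 0.01 over all genes tested.

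Ednrb, the endothelin receptor type B, was the second by the same ranking and the more abundant gene. It was 62.3 CPM in C57BL/6 wild type and 230 CPM in C57BL/6 Ift88Orpk, and 26.7 and 153 CPM in BALB/c. Both Ift88Orpk libraries exceeded both wild type libraries, as in 15.8% of the 12575 genes, and its choice from this class favours that order. The ratio was 3.69 (95% counting interval 3.45 to 3.95) in C57BL/6 and 5.72 (5.21 to 6.28) in BALB/c, with a fitted log2 fold change of 2.20 ± 0.43 (SE, adjusted p = 0.441, edgeR). Endothelin receptors are carried by endothelial and stellate cells of the liver.

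Collagens and the enzymes that process them were higher in both strains as a group. Of 23 tested genes of this list, 20 were higher in both strains, 3 were higher in BALB/c and lower in C57BL/6, 0 passed the test and 6 were in the class higher in both. The median log2 ratio was 0.76 in C57BL/6 and 1.86 in BALB/c, and the median fitted log2 fold change was 1.58, against 0.04 over all genes tested, of which 25.3% were higher in both strains. Col1a1, a chain of type I collagen, was 714 and 1535 CPM in C57BL/6 wild type and Ift88Orpk and 614 and 3422 CPM in BALB/c. Col3a1, which forms type III collagen, was 525 and 1301 CPM in C57BL/6 and 465 and 2425 CPM in BALB/c. For both chains the genotypes did not overlap, an order that 15.8% of the 12575 genes showed and that their class favours. Col5a3 was 2.47 and 11.5 CPM in C57BL/6 and 6.13 and 21.2 CPM in BALB/c. Plod2, which hydroxylates lysines of collagen before cross-linking, was 5.19 and 15 CPM in C57BL/6 and 2.91 and 10.2 CPM in BALB/c. Loxl1, an enzyme of the lysyl oxidase family, was 7.05 and 18.5 CPM and 5.98 and 27.1 CPM. Col6a5, a type VI collagen chain outside the list, was 7.05 and 19.4 CPM in C57BL/6 and 23.6 and 219 CPM in BALB/c (fitted log2 fold change 2.36 ± 0.53 SE, adjusted p = 0.547, edgeR). Serpinh1, the collagen chaperone, was an exception at 233 and 190 CPM in C57BL/6 and 212 and 302 CPM in BALB/c. Col1a1, Col1a2 and Col3a1 also count among the stellate and fibroblast markers whose sum moved with genotype.

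Elastic fibre and other matrix genes stood beside the collagens. Fbn2, a fibrillin, was 4.88 and 16.1 CPM in C57BL/6 wild type and Ift88Orpk and 1.51 and 22.7 CPM in BALB/c. Mfap4, a microfibril-associated protein, was 3.89 and 13.9 CPM and 0.653 and 22.6 CPM. Both were higher in each Ift88Orpk library, but Mfap4 overlaps Mapk7 on the opposite strand and the strand setting of the counting is not given in the sources used here. Of 26 matrix glycoprotein and proteoglycan genes, 14 were higher (53.8%) and 1 was lower (3.85%) in both strains. Over all genes tested, 25.3% were higher and 18.3% lower in both. Median log2 ratios of the list were 0.20 in C57BL/6 and 1.36 in BALB/c, and no gene passed the test. Negr1, a cell adhesion molecule, and Pi15, a secreted peptidase inhibitor, completed the named set, with log2 ratios of 1.73 and 2.65 and of 1.47 and 2.40 in C57BL/6 and BALB/c. Basement membrane genes did not share the shift: of 21 tested, 8 were higher (38.1%) and 6 lower (28.6%) in both strains, with medians of 0.29 and -0.08.

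**Figure D4:**
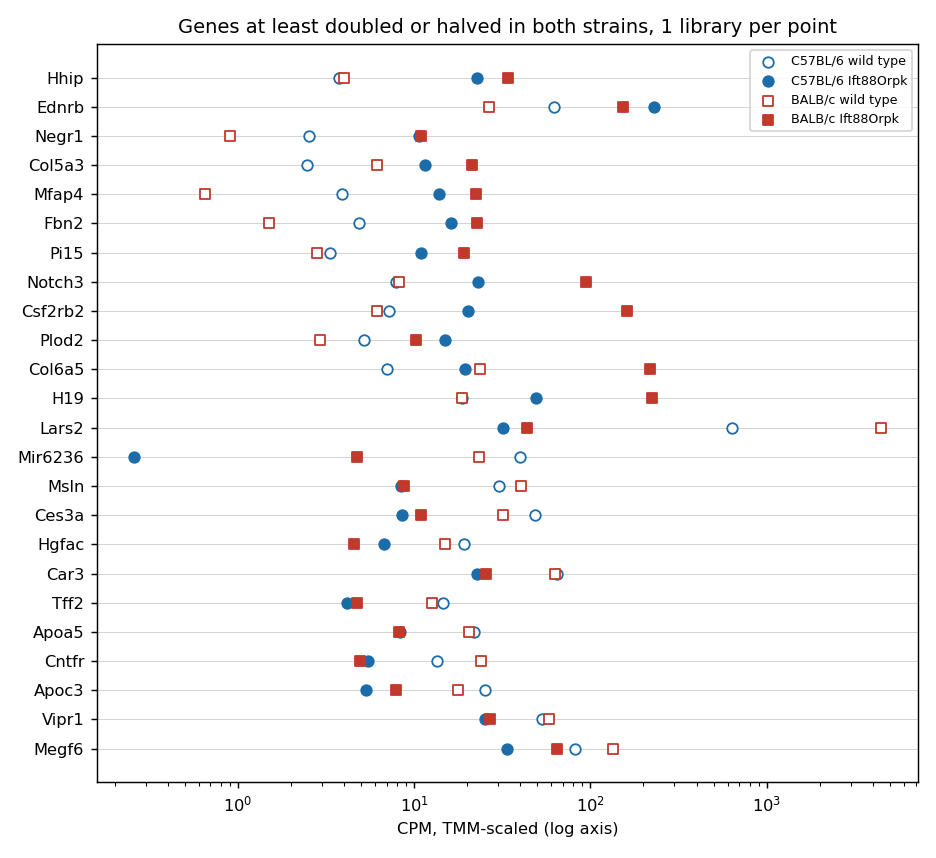
Level in CPM (log axis) of the 12 genes higher and the 12 genes lower in both strains that the naming rule picked, in each of the 4 DBA-sorted libraries. Filled symbols (Ift88Orpk) lie right of the open symbol of the same strain from Hhip to H19 and left of it from Lars2 to Megf6; for Col6a5 the C57BL/6 Ift88Orpk library lies below BALB/c wild type.

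Notch3 and Acta2, of smooth muscle and mural cells, were also higher in both Ift88Orpk libraries. Notch3, the Notch receptor of smooth muscle cells and pericytes, was 7.85 and 23.2 CPM in C57BL/6 wild type and Ift88Orpk and 8.19 and 93.9 CPM in BALB/c. Its ratio was 2.95 (95% counting interval 2.43 to 3.61) in C57BL/6 and 11.5 (9.77 to 13.5) in BALB/c, with a fitted log2 fold change of 2.54 ± 0.59 (SE, adjusted p = 0.547, edgeR). The step in BALB/c was the larger. Acta2, smooth muscle actin and a hallmark of activated stellate cells, was 15.8 and 39.1 CPM in C57BL/6 and 9.5 and 62 CPM in BALB/c (log2 fold change 2.01 ± 0.39 SE, adjusted p = 0.441, edgeR). Tagln, an actin-binding protein of smooth muscle, was 7.29 and 18.8 CPM and 9.7 and 24.9 CPM, and Pdgfrb, the platelet-derived growth factor receptor of mesenchymal cells, was 9.52 and 24.7 CPM and 7.39 and 63.1 CPM. The genotypes did not overlap for any of these 4 genes, an order that their choice as genes higher in both strains favours. It was shown by 15.8% of the 12575 genes. Of 9 smooth muscle and mural markers, 6 were higher in both strains (66.7%), against 25.3% over all genes tested. The other 3 were higher in BALB/c and lower in C57BL/6, and 0 passed the test. Median log2 ratios were 0.42 in C57BL/6 and 1.96 in BALB/c. The wider list of 21 contractile and actin genes was mixed in C57BL/6. Of these, 12 were higher in both strains (57.1%), 3 lower in both (14.3%) and 6 lower in C57BL/6 and higher in BALB/c. Medians were 0.15 and 0.85, and no gene passed the test. Over all genes tested, 18.3% were lower in both strains. The rest of the Notch pathway did not follow Notch3: of 17 tested genes 3 were higher (17.6%) and 7 lower (41.2%) in both strains. Notch1, at 570 to 900 CPM, was 689 and 696 CPM in C57BL/6 and 900 and 570 CPM in BALB/c.

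H19 and genes of the insulin-like growth factor system were in the class too. H19, an imprinted noncoding RNA that is abundant in fetal liver, was 18.7 CPM in both wild type libraries, 48.9 CPM in C57BL/6 Ift88Orpk and 225 CPM in BALB/c Ift88Orpk. Its imprinted neighbour Igf2, an insulin-like growth factor, was 10.4 and 23.1 CPM in C57BL/6 wild type and Ift88Orpk and 4.77 and 40.8 CPM in BALB/c. Igfbp1, which binds such growth factors, was 2.6 and 23.1 CPM and 3.87 and 10.5 CPM. All 3 were higher in each Ift88Orpk library, Igfbp1 more so in C57BL/6. Of 23 tested growth factor genes, 9 were higher (39.1%) and 4 lower (17.4%) in both strains, against 25.3% and 18.3% over all genes tested. The share of lower genes was thus near the background. The median log2 ratio of the list was 0.00 in C57BL/6 and 0.99 in BALB/c.

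Several mediators and receptors of inflammation were in the class as well. Il1r2, a decoy receptor for interleukin 1 that is common on neutrophils, was 0.309 and 3.19 CPM in C57BL/6 wild type and Ift88Orpk and 2.31 and 15 CPM in BALB/c. The fitted log2 fold change was 2.91 ± 0.36 (SE, adjusted p = 0.282, edgeR). Csf2rb2, a receptor subunit for interleukin 3, was 7.23 and 20.3 CPM in C57BL/6 and 6.18 and 162 CPM in BALB/c. Ptgs2, the inducible prostaglandin synthase, was 3.71 and 8.5 CPM and 4.37 and 63.2 CPM. Il33, an alarmin released by damaged stromal and endothelial cells, was 12.4 and 30.9 CPM and 4.22 and 34.8 CPM. For Csf2rb2, Ptgs2 and Il33 the step in BALB/c was the larger. Among 31 tested genes of nuclear factor kappa B signalling and inflammatory mediators, 22 were higher (71%) and 1 was lower (3.23%) in both strains. Over all genes tested, 25.3% were higher and 18.3% lower in both. In the list 0 genes passed the test, and median log2 ratios were 0.18 in C57BL/6 and 1.27 in BALB/c. The neutrophil marker sum was higher in Ift88Orpk with these genes in BALB/c (10.6 and 211 CPM) and not in C57BL/6 (24 and 18.8 CPM), and its part in them was not tested.

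The medians of some groups moved by nearly the same small amount in both strains. Of 31 genes of glycolysis and the hypoxia response, 20 were higher (64.5%) and 0 lower in both, against 25.3% and 18.3% over all genes tested. Another 7 were higher in C57BL/6 and lower in BALB/c (22.6%, against 19.8% over all genes tested), and 4 were the reverse (12.9%, against 23.6%). Median log2 ratios of the list were 0.40 in C57BL/6 and 0.42 in BALB/c, and no gene passed the test. Slc16a3, a lactate exporter, was 9.39 and 25.3 CPM in C57BL/6 wild type and Ift88Orpk and 11 and 34.9 CPM in BALB/c. Ldha, lactate dehydrogenase A, was 139 and 232 CPM and 150 and 201 CPM. The genotypes did not overlap for either gene, an order that 15.8% of the 12575 genes showed and that the way of choosing genes favours. Ankrd37, a target of hypoxia-inducible factor, had no counts in either wild type library and reached 5.26 CPM in C57BL/6 and 1.89 CPM in BALB/c Ift88Orpk. Of 48 cytosolic ribosomal protein genes, 33 were higher (68.8%) and 1 was lower (2.08%) in both strains, with medians of 0.24 and 0.33. A further 4 (8.33%) were higher in C57BL/6 and lower in BALB/c, and 10 (20.8%) were the reverse. The median fitted log2 fold change stayed positive under every alternative scaling, filter and left-out library, at 0.37 to 0.44 for glycolysis and 0.24 to 0.34 for ribosomal proteins. Nuclear genes of oxidative phosphorylation had medians of 0.08 and 0.06, whereas the genes of the mitochondrial genome had medians of -1.10 in C57BL/6 and 0.98 in BALB/c.

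**Figure D5:**
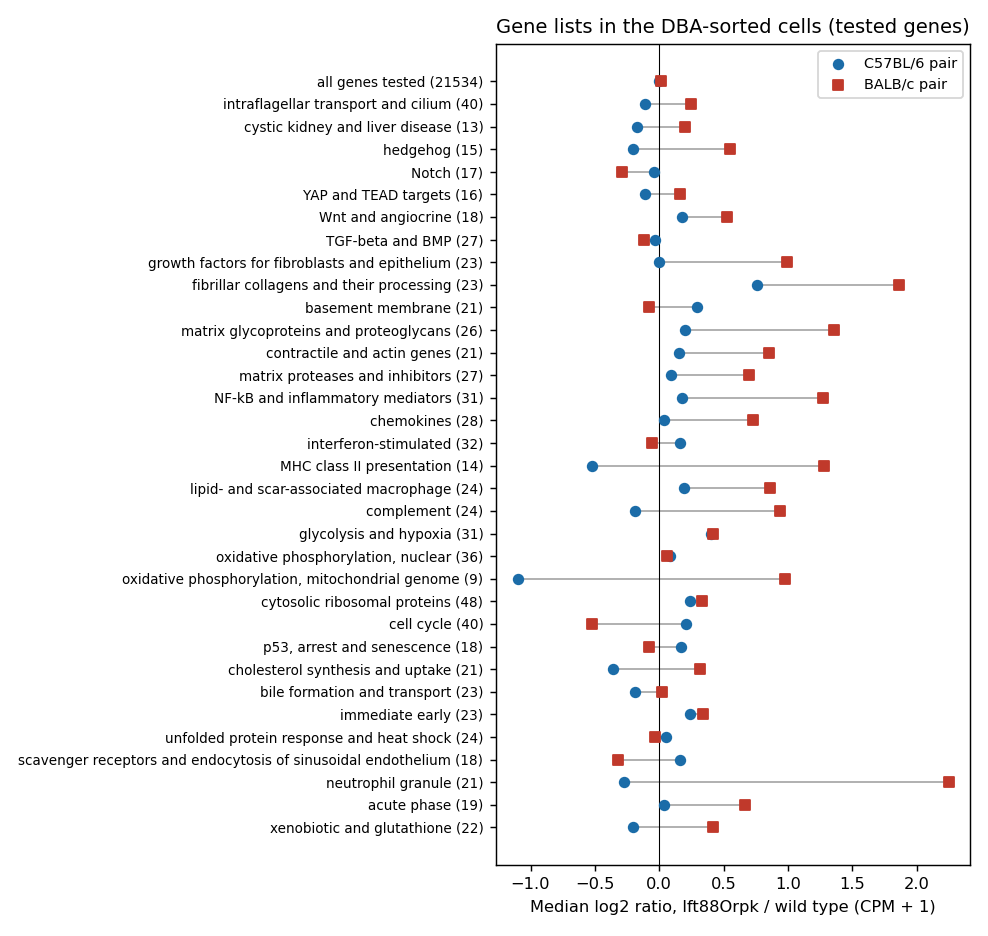
Median log2 ratio of Ift88Orpk to wild type (CPM + 1) of 33 gene lists and of all genes tested, in the C57BL/6 pair (circles) and the BALB/c pair (squares), with the number of tested genes in brackets. Fibrillar collagens lie right of 0 in both pairs (0.76 and 1.86), glycolysis at nearly one value (0.40 and 0.42), and the mitochondrial genome at opposite sides (-1.10 and 0.98).

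Of the 39 genes lower in both strains, 31 were protein coding, 20 had the larger ratio in BALB/c and 18 had an unadjusted p under 0.05. Levels were below 20 CPM in all 4 libraries for 26, and 7 were in a cell type marker list. Lars2, annotated as the mitochondrial leucyl-tRNA synthetase, was 640 CPM in C57BL/6 wild type, 31.8 CPM in C57BL/6 Ift88Orpk, 4458 CPM in BALB/c wild type and 43.7 CPM in BALB/c Ift88Orpk. Both Ift88Orpk libraries lay far below both wild type libraries, which themselves differed by several-fold. Of the 12575 genes, 11.8% had both Ift88Orpk libraries below both wild type libraries, an order that this class favours. The ratio was 0.0496 (95% counting interval 0.046 to 0.0535) in C57BL/6 and 0.00981 (0.00919 to 0.0105) in BALB/c, and the fitted log2 fold change was -5.50 ± 0.67 (SE, adjusted p = 0.282, edgeR). CT010467.1 moved with it, at 186 and 10.8 CPM in C57BL/6 wild type and Ift88Orpk and 1219 and 70.9 CPM in BALB/c. So did Gm15564, at 4.57 and 0.388 CPM and 66 and 1.08 CPM. A stretch of 72 aligned bases was 98.6% identical between transcripts of Lars2 and Gm15564, so reads of these genes are uncertain. Whether CT010467.1 and Mir6236 share reads with other loci was not tested, and their values are uncertain in the same way. Over the 8 wild type and Ift88Orpk pairs of the series, Lars2 was lower in Ift88Orpk in 6 and higher in 2. The lower pairs include both DBA-sorted pairs, which were bound to count as lower because they placed Lars2 in this class. It was higher in C57BL/6 Ly6Clo macrophages (18.6 and 26 CPM) and BALB/c Ly6Chi macrophages (50.9 and 65.1 CPM). Mir6236 was 39.8 and 0.259 CPM in C57BL/6 and 23.4 and 4.76 CPM in BALB/c. It was at least 2-fold lower in each strain, though the C57BL/6 Ift88Orpk level was that of a few reads.

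Mesothelial genes were lower in both strains. Msln, mesothelin of the serosal lining, was 30.4 CPM in C57BL/6 wild type and 8.41 CPM in C57BL/6 Ift88Orpk, and 40.3 and 8.81 CPM in BALB/c. Its ratio was 0.277 (95% counting interval 0.233 to 0.327) and 0.219 (0.186 to 0.257), with a fitted log2 fold change of -2.02 ± 0.88 (SE, adjusted p = 0.943, edgeR). The 2 strains were alike in both levels and ratio. Upk3b was 6.12 and 1.21 CPM in C57BL/6 and 12.5 and 0.66 CPM in BALB/c, and the mucin gene Muc16 was 5.81 and 0.388 CPM and 7.84 and 1.98 CPM. Of 8 mesothelial markers 7 were lower in both strains and 0 passed the test. The exception was Krt8, a keratin that bile duct cells also make, at 216 and 178 CPM in C57BL/6 and 111 and 268 CPM in BALB/c. The median log2 ratio of the list was -1.32 in C57BL/6 and -1.28 in BALB/c, and over all genes tested 18.3% were lower in both strains.

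B cell and some hepatocyte genes were lower as well. Of 9 B cell markers 8 (88.9%) were lower in both strains, against 18.3% over all genes tested, and 0 passed the test. Their median log2 ratios were -1.66 in C57BL/6 and -0.90 in BALB/c. Ighd, the heavy chain of immunoglobulin D, was 6.24 and 0.302 CPM in C57BL/6 wild type and Ift88Orpk and 4.07 and 0.424 CPM in BALB/c (fitted log2 fold change -3.78 ± 0.72 SE, adjusted p = 0.441, edgeR). Pax5, the transcription factor of B cell identity, was 13.2 and 3.49 CPM and 7.39 and 2.73 CPM. Both genes were at least 2-fold lower in each strain. Among genes of hepatocytes, Apoc3, an apolipoprotein of triglyceride-rich particles, was 25.2 and 5.35 CPM in C57BL/6 and 17.8 and 7.92 CPM in BALB/c, and Apoa5 was 21.9 and 8.37 CPM and 20.5 and 8.2 CPM. Ces3a, a carboxylesterase, was 48.6 and 8.5 CPM and 32 and 10.9 CPM. Hgfac, the protease that activates hepatocyte growth factor, was 19.2 and 6.73 CPM and 14.9 and 4.57 CPM. The hepatocyte list as a whole was divided, however, with 5 of 14 markers lower (35.7%) and 3 higher (21.4%) in both strains. Over all genes tested, 25.3% were higher in both. The hepatocyte sums were 4611, 3193, 2486 and 2363 CPM. Car3, Tff2, Cntfr, Vipr1 and Megf6 completed the named set, with log2 ratios of -1.06 to -1.58 in C57BL/6 and -1.06 to -2.08 in BALB/c.

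Bile duct genes themselves ran in opposite directions in the strains. Of 16 cholangiocyte markers, 14 were lower in Ift88Orpk in C57BL/6 and higher in BALB/c (87.5%, against 23.6% over all genes tested). Slc4a2, an anion exchanger, was an exception and was lower in both. Krt19, a keratin of bile duct cells, was 246 and 107 CPM in C57BL/6 wild type and Ift88Orpk and 88.1 and 109 CPM in BALB/c. Cftr, the chloride channel of bile secretion, was 8.78 and 6.17 CPM and 2.91 and 26.8 CPM. For both genes the wild type level was higher in C57BL/6 than in BALB/c, so the genotypes overlapped. The median log2 ratio of the list was -0.53 in C57BL/6 and 0.67 in BALB/c, and 0 of 16 passed the test.

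Cilium genes moved little by their medians. Of 40 intraflagellar transport and cilium genes, 7 were higher (17.5%) and 10 lower (25%) in both strains, against 25.3% and 18.3% over all genes tested. A larger number, 17 (42.5%), were lower in C57BL/6 and higher in BALB/c, against 23.6% over all genes tested. Median log2 ratios were -0.11 in C57BL/6 and 0.25 in BALB/c, and no gene passed the test. Ift52, a partner of Ift88 in the same transport complex, had the smallest p of the list. It was 30.8 and 17.8 CPM in C57BL/6 wild type and Ift88Orpk and 30.7 and 14.5 CPM in BALB/c, a fitted log2 fold change of -0.94 ± 0.25 (SE, adjusted p = 0.677, edgeR). Both Ift88Orpk libraries lay below both wild type libraries, an order that 11.8% of the 12575 genes showed and that choice by p favours. Ift140, of the complex for return transport, was 13 and 19.3 CPM and 14.7 and 23.8 CPM, and Bbs9, of the BBSome that carries membrane proteins, was 23.5 and 17.4 CPM and 28.9 and 13.2 CPM. Of 13 tested genes of cystic kidney and liver disease, 2 were higher and 2 lower in both strains (15.4% each). A further 8 (61.5%) were lower in C57BL/6 and higher in BALB/c. The medians were -0.17 and 0.20.

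In C57BL/6 alone, Depp1, Cyp26b1 and Fabp4 were among the genes that were higher and Cyp1a1 and Serpina3k among those that were lower in Ift88Orpk. Depp1, a target of FoxO transcription factors, was 17.6 and 131 CPM in C57BL/6 wild type and Ift88Orpk and 11.7 and 15.5 CPM in BALB/c, and overlaps Rassf4. Its ratio was 7.41 (95% counting interval 6.56 to 8.4) in C57BL/6 and 1.33 (1.12 to 1.58) in BALB/c. Cyp26b1, which degrades retinoic acid, was 286 and 694 CPM and 288 and 260 CPM, and Fabp4, a fatty acid binding protein of endothelium and fat, was 82.3 and 187 CPM and 98.8 and 70.7 CPM. C57BL/6 Ift88Orpk was the highest library for each. Chil4, a chitinase-like protein, was 2.53 and 26.3 CPM in C57BL/6 and had no counts in either BALB/c library. Lower in C57BL/6 alone was Cyp1a1, a cytochrome P450 induced through the aryl hydrocarbon receptor, at 39.9 and 6.73 CPM in C57BL/6 and 2.56 and 1.79 CPM in BALB/c. Serpina3k, a liver serine protease inhibitor, was 233 and 47.6 CPM and 161 and 123 CPM, and overlaps Serpina3m. Rpl38 and Pbx3 among the higher and Gjb1, Slc39a4, Cyfip2 and Tjp3 (which overlaps Apba3) among the lower genes completed the named set, with log2 ratios in C57BL/6 of 1.10 to 1.58 and -1.43 to -1.71.

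Among the 681 genes higher in BALB/c alone were S100a8, Slfn4 and Cxcl5 of myeloid cells and inflammation and Spon1 and Ssc5d, which are secreted. S100a8, a calcium-binding protein that fills the neutrophil cytosol, was 1.42 and 2.24 CPM in C57BL/6 wild type and Ift88Orpk and 0.854 and 34.5 CPM in BALB/c. Slfn4, a gene of myeloid cells, was 1.79 and 2.33 CPM in C57BL/6 and 0 and 21.6 CPM in BALB/c. Cxcl5, a chemokine that attracts neutrophils, was 2.35 and 1.85 CPM and 1.06 and 21.5 CPM. BALB/c Ift88Orpk was the only high library for these 3 genes, as it was for the neutrophil marker sum. Neutrophil markers were not all of this kind. Of 12 tested, 5 were higher in both strains (41.7%, against 25.3% over all genes tested) and 6 were lower in C57BL/6 and higher in BALB/c (50%, against 23.6%). S100a9 was in the class higher in both strains, at 1.05 and 3.8 CPM in C57BL/6 and 0.1 and 30.6 CPM in BALB/c. Spon1, a matrix protein, was 35.2 and 26.3 CPM in C57BL/6 and 14.3 and 148 CPM in BALB/c. Ssc5d was 1.98 and 1.47 CPM in C57BL/6 and 0.301 and 21.9 CPM in BALB/c. For both genes BALB/c wild type was the lowest library of all. Neutrophil granule genes had median log2 ratios of -0.27 in C57BL/6 and 2.25 in BALB/c, and genes of antigen presentation by MHC class II had -0.52 and 1.28. The MHC gene H2-Ab1 was 26.7 and 20.9 CPM in C57BL/6 and 15.4 and 63.8 CPM in BALB/c.

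Lower in BALB/c alone were the pancreatic lipases Pnlip and Cel, which reached a high level in the BALB/c wild type library and in no other. Cel was 22.2 CPM there and at most 0.0943 CPM in the other 3 libraries, and Pnlip has been given above. Nes, the intermediate filament nestin, was 64.8 and 76.7 CPM in C57BL/6 wild type and Ift88Orpk and 74.6 and 27 CPM in BALB/c. Khk, the enzyme that takes up fructose into metabolism, was 18.4 and 24 CPM and 23.4 and 9 CPM. BALB/c Ift88Orpk was the lowest library for both. Kti12, which overlaps Txndc12, and Arhgap33 were lower by log2 ratios of -1.57 and -1.40. Sinusoidal endothelial markers stood at a median log2 ratio of 0.01 in C57BL/6 and -0.69 in BALB/c, and cell cycle genes at 0.21 and -0.52.

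Genes with opposite ratios were lower in C57BL/6 and higher in BALB/c in each case named. Lamc3, a laminin chain, was 51.1 and 12.9 CPM in C57BL/6 wild type and Ift88Orpk and 22.4 and 86 CPM in BALB/c. Itih5, a hyaluronan-binding protein, was 50.1 and 22.6 CPM and 25.2 and 143 CPM. Lsp1, an actin-binding protein of leukocytes, was 28.1 and 13 CPM and 12.4 and 68.8 CPM, and Fam83h was 32.3 and 12.5 CPM and 7.39 and 20.7 CPM. In each of these 4 genes the wild type level of C57BL/6 was above that of BALB/c, and the order was the reverse in Ift88Orpk. No gene with the other orientation had at least 20 CPM in the higher library of both pairs.

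A strain by genotype term was added for the DBA-sorted cells. With it each of the 4 libraries is fitted exactly. Its p-values thus rest on the spread among leukocyte libraries alone (3 residual degrees of freedom), shared in part across genes. They are no test of the spread among DBA-sorted pools. The term passed for 2 of 21534 genes (0.00929%), and 1649 had an unadjusted p under 0.05. March1, a ubiquitin ligase that removes MHC class II from the surface of antigen-presenting cells, was 11.5 and 3.71 CPM in C57BL/6 wild type and Ift88Orpk and 0.251 and 11.2 CPM in BALB/c. The strain by genotype term of March1, BALB/c minus C57BL/6, was 7.07 ± 0.50 on the log2 scale (SE, adjusted p = 0.047, edgeR). Kbtbd11, a kelch-repeat protein, was 6.86 and 1.81 CPM and 0.1 and 5.42 CPM, with a term of 7.58 ± 0.58 (SE, adjusted p = 0.047, edgeR). BALB/c wild type held 5 counts of March1 and 2 of Kbtbd11, so the size of both terms rests on few reads. Both genes moved in opposite directions in the strains, and both calls ended when any of the 3 leukocyte populations was left out of the fit (lowest adjusted p = 0.0561) or under other scaling factors (lowest adjusted p = 0.0545). March1 was 119 to 276 CPM in the leukocyte libraries, so leukocyte RNA has a much higher level of it than DBA-sorted cells. The neutrophil and monocyte marker sums moved up with March1 in BALB/c. In C57BL/6, where March1 was lower in Ift88Orpk, the neutrophil sum was 24 and 18.8 CPM and the monocyte sum 449 and 485 CPM. The part of these cells was not tested. Slfn4, named above, had an adjusted p of 0.0671 (edgeR) for the same term.

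The genotype effect in the DBA-sorted cells was also set against that of the leukocytes. No gene (0%) passed the test of that difference by edgeR, 936 had an unadjusted p under 0.05, and DESeq2 called 45 (0.209%). Of the 117 genes higher in both strains, the fitted effect was also positive for 73 in the Ly6Chi, 75 in the Ly6Clo and 84 in the neutrophil libraries (62.4%, 64.1% and 71.8%). Over all genes of the same minimum level that were tested, the shares were 47.5%, 49.8% and 54.2%. Of the 39 lower genes, 33, 28 and 31 had a negative effect there (84.6%, 71.8% and 79.5%), against 52.5%, 50.2% and 45.8%. These counts describe fits to other libraries of the same strains and genotypes, and no test was made of them. They include genes with few or no leukocyte counts, such as Hhip, for which the sign of the fitted effect is not reliable. The minimum level was set in DBA-sorted cells and not in leukocytes, so the compared genes may differ in leukocyte level.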

How the data were processed

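RNA was measured in cells sorted from digested mouse liver. RNA with an integrity number above 7 was made into NEBNext libraries with ribosome reduction and read as paired-end 75 nt, per the labels' protocols. The authors deposited raw counts of reads per Ensembl gene, made with STAR on GRCm38/mm10 and HTSeq-count 0.9.1, per the labels' protocols. The tools bcl2fastq 2.18.0.12 and Cufflinks 2.2.1 and the build GRCm38.p4 also stand in the submitters' processing notes. Which STAR version, strand mode and gene annotation served is not given in the sources used here.

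Of 48795 gene identifiers, 48435 matched GENCODE M21. Summary lines (5) were left out of library sizes and tests; reads in no feature were 29.08 to 34.97% of all counted reads in the 4 DBA-sorted libraries. Intervals cover counting error only. Genotype was tested with edgeR 4.0.16 (R 4.3.3, quasi-likelihood test, TMM factors, filterByExpr, Benjamini-Hochberg adjustment over 21534 genes, threshold 0.05) in 1 model of the 16 libraries, where each population had its own level, strain effect and genotype effect, leaving 4 residual degrees of freedom. Leukocyte libraries enter so that the populations share the estimate of spread. Each gene's spread is also drawn toward that of other genes by edgeR, so p-values do not rest on the residual degrees of freedom alone. A strain by genotype term for the DBA-sorted cells was added in a second fit (3 residual degrees of freedom, all among leukocytes). SE values were computed by dividing the fold change (log2) by the root of the F statistic. DESeq2 1.42.0 was an alternative. Before use, the fit was tested on simulated counts.

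Within a strain, log2 ratios of CPM used a pseudocount of 1 CPM and no test, with exact binomial 95% counting intervals from scipy 1.17.1. Named genes were the 12 of each direction with the largest ratio in their weaker strain and at least 10 CPM in both pairs, the 6 of each direction and strain with the largest difference between strains and at least 20 CPM, the 4 opposite genes, and up to 4 members per list by p. Predicted genes and pseudogenes were skipped, and a few genes are not reported here. Others (Il17d, CT010467.1, Gm15564, sex-linked and pancreatic genes, and genes given for their role) were chosen after their values were seen. The members of the comparison, the 49 lists and the naming rule were chosen with earlier results of these data known. The list symbols Ctgf, Cyr61 and C5 matched no gene. Shared bases were found with blastn 2.17.0.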

Additional observations from a re-analysis of the deposited data

Results flagged for a closer look

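A strain by genotype term passed its threshold for 2 genes of the DBA-sorted cells. With 1 library per group the p-values take their spread from the leukocyte libraries alone, so they do not show that the difference exceeds the spread among DBA-sorted pools. March1, which encodes a ubiquitin ligase of antigen-presenting cells, had a strain by genotype term of 7.07 ± 0.50 on the log2 scale (SE, adjusted p = 0.047, edgeR), BALB/c minus C57BL/6, with DESeq2 giving 7.13. Kbtbd11 had a term of 7.58 ± 0.58 (SE, adjusted p = 0.047, edgeR), with DESeq2 giving 7.70. In both genes BALB/c wild type was the lowest library, at 0.251 and 0.1 CPM. The leukocyte libraries held 119 to 276 CPM of March1 and 4.17 to 71.3 CPM of Kbtbd11, and the part of leukocyte RNA in the differences was not tested. Both calls ended under relative log expression and upper-quartile factors, with a filter of 5 CPM, and without any 1 of the leukocyte populations.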

How the results depend on the processing

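The fitted fold changes of the genes named for both strains kept their direction under every alternative. Their choice by ratios of the same sign in both strains favours that outcome, so it is no support for them. Each of the 49 list medians was compared with its main value under each alternative. It moved by more than the spread between strains in 114 of these comparisons and did not in 621. No gene passed the genotype test under other scaling factors, other filters, without chromosomes X and Y or without any leukocyte population; leaving out 1 DBA-sorted library gave 0 to 48 calls, DESeq2 83, and the 4 libraries alone 0 without and 1 with strain as a replicate block. The strain by genotype term passed for 316 genes with DESeq2, 28 with no filter, and 0 with relative log expression or upper-quartile factors, a 5 CPM filter, or without Ly6Chi, Ly6Clo or neutrophil libraries. The difference from leukocytes passed for 45 with DESeq2 and 0 to 10 with 1 library left out. The cause of these differences was not tested.

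Class sizes depended on the settings. With a pseudocount of 0.25 CPM, 181 genes were higher and 61 lower in both strains and 188 opposite. With 5 CPM, the numbers were 25 and 8 in both, 27 and 54 in C57BL/6 only, 84 lower in BALB/c only and 11 opposite. With a minimum of 20 CPM they were 44 and 13 in both, 30 and 45 in C57BL/6 only, 268 and 70 in BALB/c only and 24 opposite, and with no minimum 195 and 74, 354 and 491, 1370 and 630, and 237. At 1.5-fold they were 380 and 181 in both, 348 and 396 in C57BL/6 only, 654 lower in BALB/c only and 598 opposite. At 3-fold they were 13 and 8, 27 and 42, 406 and 69, and 11. Relative log expression factors kept 105 of the 117 higher and 39 of the 39 lower genes. Chosen after seeing the data, a counting interval that excludes 1 in both strains left 117 and 39, and leaving out marker genes and chromosomes X and Y left 104 and 32. With 1 library per group, depth limited genes under about 5 CPM, and 73 of the 117 were below 20 CPM.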
